A study of Homo sapiens with 6 samples.

Results

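The chromatin around 6 genes of blood stem and myeloid cells was described here. They were KIT, FLT3, CSF1R, CSF3R and CSF2RB, which encode cytokine receptors, and CD34, which encodes a surface glycoprotein of stem and progenitor cells. The members were all listed peaks in 6 fixed windows of the genome build hg19, namely chr4:55.45-55.65 Mb (KIT), chr13:28.53-28.73 Mb (FLT3), chr5:149.39-149.54 Mb (CSF1R), chr1:36.90-37.00 Mb (CSF3R), chr22:37.26-37.38 Mb (CSF2RB) and chr1:208.01-208.14 Mb (CD34). In all they held 263 of the 145457 peaks of 4 lists. These were 2 of 1701 RUNX1 sites in DMSO, 15 of 10319 RUNX1 sites in AI-10-49, 111 of 67087 H3K27ac regions in DMSO and 135 of 66350 H3K27ac regions in AI-10-49.

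The cells were ME-1, an established human leukemia line with inv(16). This inversion joins CBFB to MYH11 and yields the fusion protein CBFβ-SMMHC, which binds the transcription factor RUNX1, and AI-10-49 is a compound that inhibits this binding. All groups shared the line and the fusion, and cells were given DMSO or AI-10-49 (1 µM) for 6 h before precipitation with an antibody to RUNX1 or to H3K27ac, the histone H3 acetylation of active promoters and enhancers. There was 1 library for each antibody and condition and no second line or clone, so differences between conditions have no replicate check and are given without p-values. Intervals below are 95% intervals, which for fragment numbers cover counting error only and for shares (exact Clopper-Pearson) the sampling of peaks.

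KIT, FLT3 and CSF1R are receptor tyrosine kinases. KIT binds stem cell factor, FLT3 binds FLT3 ligand, and CSF1R binds the macrophage growth factor M-CSF and interleukin-34. CSF3R is the receptor of the granulocyte growth factor G-CSF, and CSF2RB is the signaling subunit shared by the receptors of GM-CSF, interleukin-3 and interleukin-5. RUNX1 is a regulator of blood stem cells and of myeloid differentiation, and CSF1R is a classical RUNX1 target gene. Mutated KIT and FLT3 are frequent partners of core-binding factor fusions and of other lesions in acute myeloid leukemia.

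RUNX proteins bind the core TGTGGT, with TGCGGT as a frequent variant. The RefSeq promoter table (GRCh38.p14, 250 bases before to 50 after a start) held 7 promoters for 5 of the 6 genes. Of these, 3 carried 1 of these cores when both strands were searched, and 19.6% of all 35116 promoters of that table did. The 3 are printed 5′ to 3′ in the direction of the gene, because RUNX1 sites were listed in the window of each gene, and the core is in capitals. The CD34 promoter is set beside them because its window held the RUNX1 site with most fragments, and it has no such core. The KIT promoter has none either, although the KIT window also held a RUNX1 site. Another listed promoter of CSF1R and another of CSF3R also lack the core, and these promoters are not printed.
CSF1R, GRCh38.p14 chr5:150086555-150086804, minus strand: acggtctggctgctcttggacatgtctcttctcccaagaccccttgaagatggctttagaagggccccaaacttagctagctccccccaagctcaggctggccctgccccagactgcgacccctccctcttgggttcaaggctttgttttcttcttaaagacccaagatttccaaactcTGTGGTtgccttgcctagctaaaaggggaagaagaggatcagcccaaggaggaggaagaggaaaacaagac
FLT3, GRCh38.p14 chr13:28100577-28100826, minus strand: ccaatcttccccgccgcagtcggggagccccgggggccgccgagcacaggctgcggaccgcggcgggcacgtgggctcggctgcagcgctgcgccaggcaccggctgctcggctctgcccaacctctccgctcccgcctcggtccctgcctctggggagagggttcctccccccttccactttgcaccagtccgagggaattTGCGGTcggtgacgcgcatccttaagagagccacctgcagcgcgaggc
CSF3R, GRCh38.p14 chr1:36483283-36483312, minus strand: gtactgtgaagaTGTGGTccccaaggctag
CD34, GRCh38.p14 chr1:207911126-207911375, minus strand: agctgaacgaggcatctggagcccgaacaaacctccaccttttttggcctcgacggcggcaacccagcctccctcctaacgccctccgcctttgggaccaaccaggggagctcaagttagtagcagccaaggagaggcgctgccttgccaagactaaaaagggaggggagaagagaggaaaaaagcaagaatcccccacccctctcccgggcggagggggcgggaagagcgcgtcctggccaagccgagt
The CSF1R core begins 71 bases before that start, the FLT3 core begins 48 bases before its start, and the CSF3R core begins at base 15 after the start. For CSF3R only the 30 bases around the core are shown. A match is a description of these letters and not a binding site. The peaks are in hg19 and these promoters in another build, so no peak was placed on a promoter, exon or intron, and a peak is named by its window only. Windows can also hold parts of neighbouring genes. In the GRCh38.p14 gene order the nearest protein-coding neighbours are URAD and PAN3 for FLT3, HMGXB3 and PDGFRB for CSF1R, MRPS15 and GRIK3 for CSF3R, NCF4 and CIMIP4 for CSF2RB, CD46 and PLXNA2 for CD34, and PDGFRA and KDR for KIT.

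RUNX1 was listed at 2 places in the windows in DMSO and at 15 in AI-10-49, a ratio of 7.5 against 6.07 over the whole lists. With the AI-10-49 list shortened to the length of the DMSO list there were 2 and 3 sites, a ratio of 1.5. Both DMSO sites lay in the CD34 window. In AI-10-49 the CD34 and FLT3 windows held 5 sites each, the CSF1R and CSF3R windows 2 each and the KIT window 1, and the CSF2RB window held none in either condition. Of the 15 AI-10-49 sites, 13 (86.7%, 59.5 to 98.3) overlapped no DMSO site, and over the whole list 85.1% did not, so the members stood near the background. With equally long lists the share was 33.3% of only 3 sites, and no whole-list share was computed for that setting. Per 100 DMSO H3K27ac regions the windows held 13.5 AI-10-49 RUNX1 sites and the genome 15.4.

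**Figure D1:**
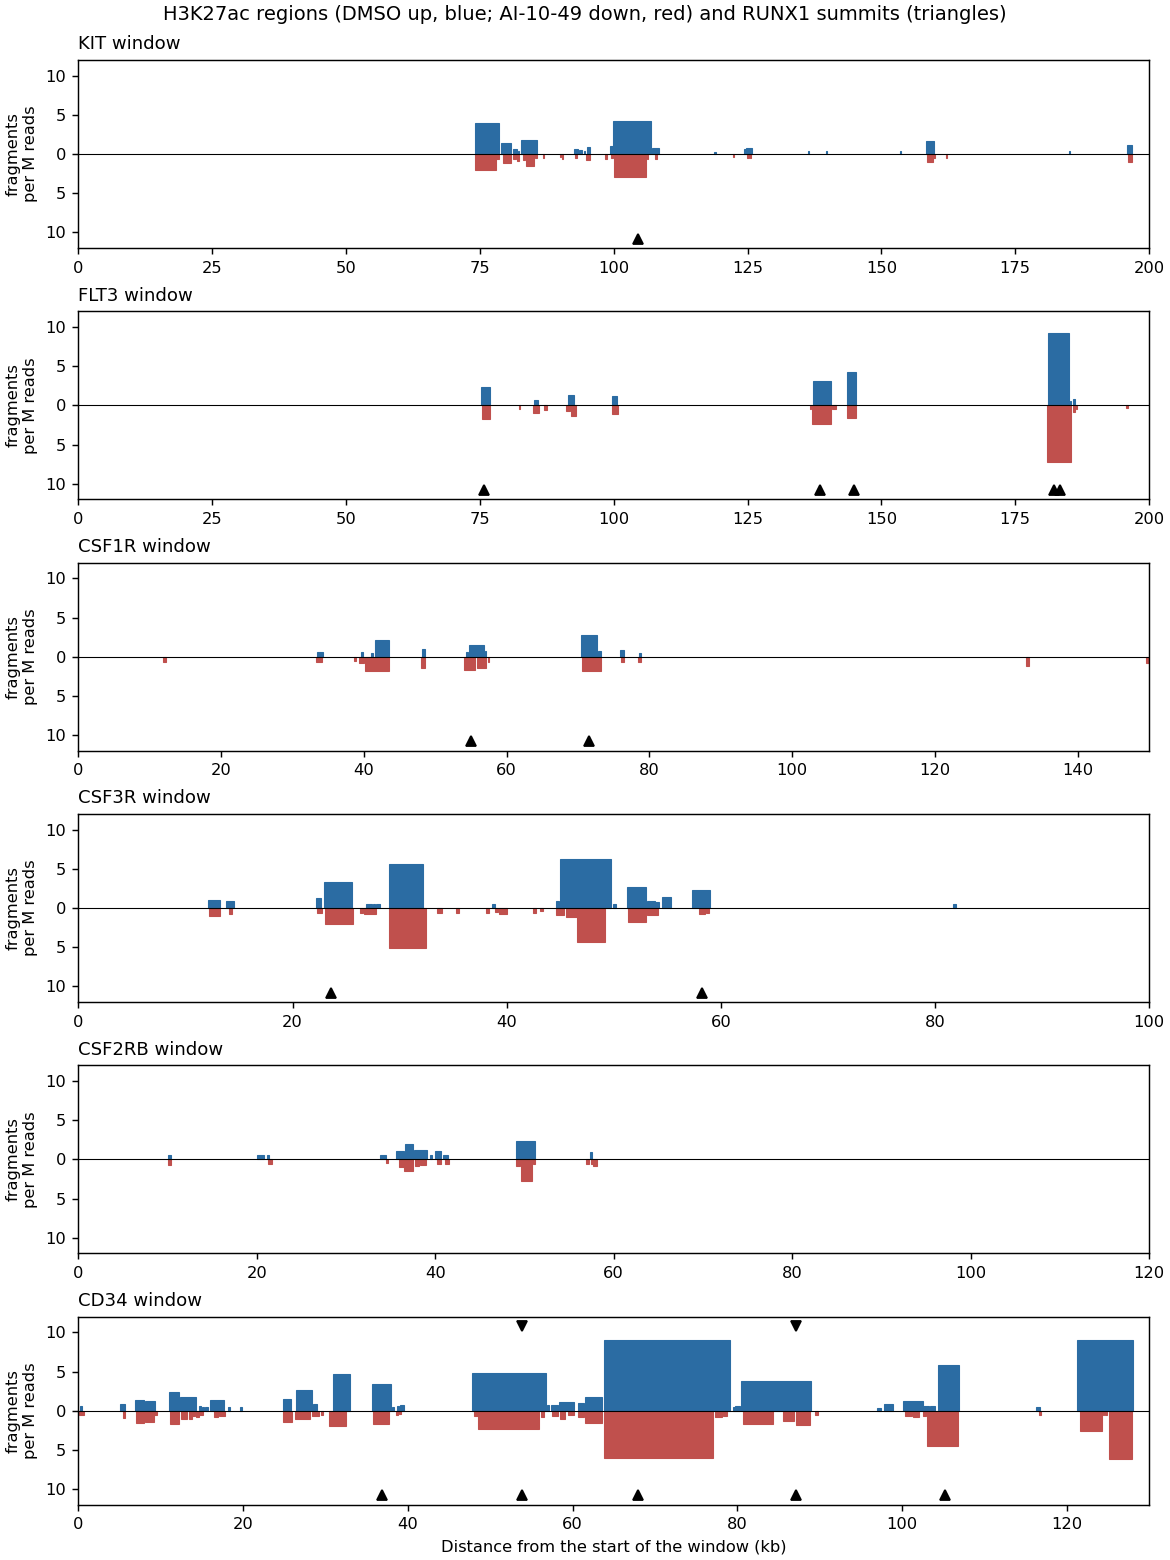
H3K27ac regions and RUNX1 summits in the 6 windows. The x axis is the distance from the start of each window in kb. Each bar spans a listed H3K27ac region, and its height is the number of summit fragments per M reads, upward in blue for DMSO and downward in red for AI-10-49. Triangles at the top mark the 2 DMSO RUNX1 summits, both in the CD34 window, and triangles at the bottom mark the 15 AI-10-49 RUNX1 summits, of which none lies in the CSF2RB window.

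Values at a peak are fragments over its summit per M ChIP reads (M for mega), recovered from the deposited fold enrichment and −log10 p. The RUNX1 libraries held 33.8 M reads (DMSO) and 31.5 M (AI-10-49) by this estimate, and the H3K27ac libraries 35.7 M and 37.0 M. Fragments were longer in AI-10-49 by 1.13 times for RUNX1 and 1.09 times for H3K27ac, and longer fragments cover a summit more often. The depth that peak calling could use, set by whichever of ChIP and input had fewer reads, was lower in AI-10-49, at 0.816 times DMSO for RUNX1 and 0.812 times for H3K27ac.

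In the CD34 window both DMSO sites were also listed in AI-10-49, with more fragments there. Over the whole list 91.2% of DMSO sites overlapped an AI-10-49 site. At chr1:208096922-208097378 (AI-10-49 interval) RUNX1 had 0.918 fragments per M reads in DMSO (31 fragments, 0.624 to 1.3) and 4.57 in AI-10-49 (144 fragments, 3.85 to 5.38), a ratio of 4.98 (3.36 to 7.6). At chr1:208063660-208063979 it had 0.799 in DMSO (27 fragments, 0.527 to 1.16) and 2.25 in AI-10-49 (71 fragments, 1.76 to 2.84), a ratio of 2.82 (1.79 to 4.57). The counting intervals of the conditions did not meet at either site. Among the 1551 DMSO sites in both lists the median ratio was 2.1, 76.0% lay above 1.5, and the 2 CD34 sites stood at percentiles 95.0 and 71.2. The summits moved little, by 46 and 36 bp between conditions, and in the AI-10-49 list the sites ranked 243 and 1052 of 10319 by −log10 q.

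The other 3 RUNX1 sites of the CD34 window were listed in AI-10-49 only. They were chr1:208077704-208078131 with 1.71 fragments per M reads (1.29 to 2.24), chr1:208115120-208115382 with 1.21 (0.853 to 1.65) and chr1:208046472-208047108 with 1.17 (0.827 to 1.62). All 3 lay within 18 kb of a DMSO site of the same window, at 13.8, 17.8 and 16.6 kb. The other windows held no DMSO site, so there the nearest one lay outside the window, from 284 kb (FLT3) to 1418 kb (CSF1R) away.

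A site in AI-10-49 only has no DMSO value. For each the number of fragments was computed that a DMSO summit would have needed to reach the lowest −log10 p of the DMSO list, if its background per read were that of AI-10-49 (minimum peak length not considered). This was 11 to 20 fragments. The 13 sites had 1.43 to 9.23 times that level per M reads, and 1.26 to 8.14 times after division by the fragment lengths. They held 0.666 to 3.55 fragments per M reads with a median of 1.17, beside 0.984 for all 8783 AI-10-49-only sites, and 9 of the 13 lay above that median.

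The foremost of these was in the CSF1R window at chr5:149461318-149461794. It held 3.55 fragments per M reads (112 fragments, 2.93 to 4.28) with a deposited fold enrichment of 24.7, and ranked 292 of 10319 by −log10 q and 63 of the 8783 AI-10-49-only sites. A DMSO summit would have been listed there from 13 fragments on, which is 0.385 per M reads, so the level in AI-10-49 was 9.23 times that needed for listing. The second CSF1R-window site, chr5:149444909-149445159, had 1.14 (0.8 to 1.58). The nearest DMSO sites were 1401 kb and 1418 kb away.

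**Figure D2:**
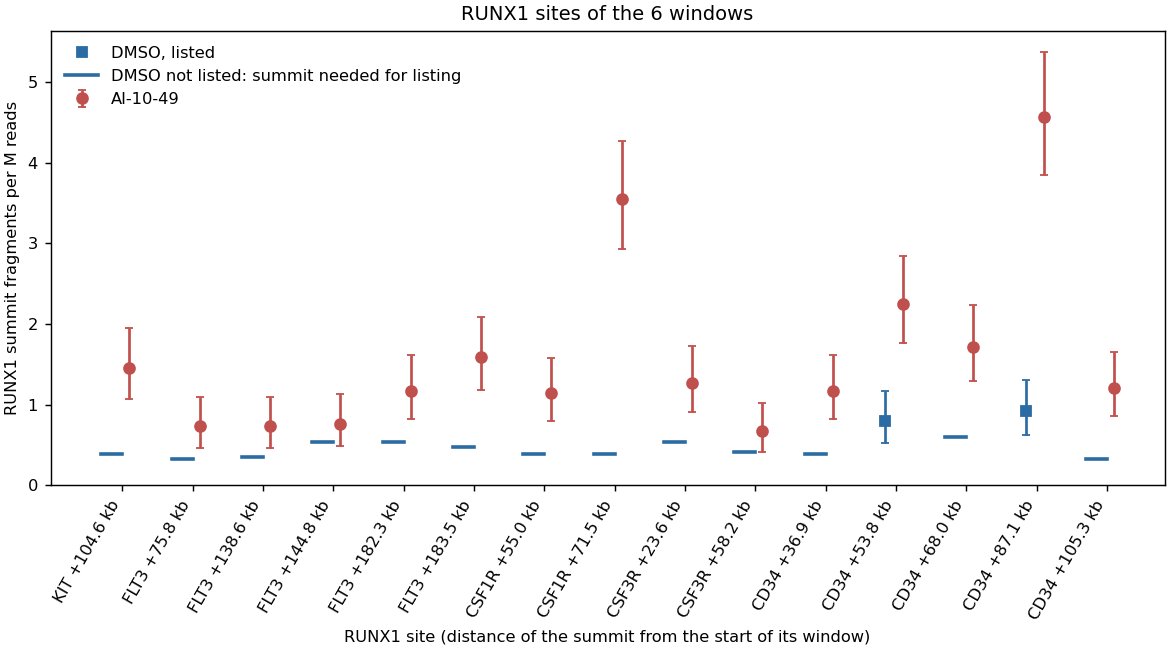
RUNX1 summit fragments per M reads (y axis) at the 15 AI-10-49 sites, named on the x axis by window and by distance in kb from its start. Red circles are AI-10-49 with exact Poisson 95% intervals, blue squares the 2 sites listed in DMSO, and blue dashes the level a DMSO summit would have needed to be listed. The 15 AI-10-49 values lie between 0.666 and 4.57, and each lies above the blue mark of its site.

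The single RUNX1 site of the KIT window, chr4:55554172-55554737, had 1.46 fragments per M reads (46 fragments, 1.07 to 1.95) and lay 1260.4 kb from the nearest DMSO site. KIT marks early progenitors and mast cells. The FLT3 window had the most sites for its acetylated regions, 5 against 9 DMSO H3K27ac regions, with 0.73 to 1.59 fragments per M reads. At chr13:28605714-28605967 and chr13:28668490-28668700 RUNX1 had 0.73 fragments per M reads each (0.463 to 1.09), and at chr13:28674574-28674995 it had 0.761 (0.488 to 1.13). The remaining pair, chr13:28713099-28713732 with 1.59 (1.18 to 2.09) and chr13:28712209-28712704 with 1.17 (0.827 to 1.62), lay side by side in 1 strongly acetylated region at the far end of the window, on the side of the neighbour PAN3, which encodes a subunit of a deadenylase. Whether they belong to FLT3 or PAN3 was not tested. In the CSF3R window chr1:36923465-36923686 had 1.27 (0.907 to 1.73), and chr1:36958197-36958378 had 0.666 (21 fragments, 0.412 to 1.02), the fewest of the 15. By −log10 q the lowest was the FLT3-window site chr13:28674574-28674995 (4.0, against 5.26 here).

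All 15 AI-10-49 RUNX1 sites (100%, 78.2 to 100) overlapped an H3K27ac region of AI-10-49, against 86.1% of the whole list, and all 15 overlapped a region that was listed in DMSO (89.8% of the whole list). The intervals of the members include both of these backgrounds. The summits of all 15 were inside a DMSO region (100%, 78.2 to 100, with 76.2% of the whole list just below that interval), and those of 14 inside an AI-10-49 region (93.3%, 68.1 to 99.8, whole list 68.4%). These intervals take the 15 sites as independent, although the FLT3-window pair lay in the same region. RUNX1 and H3K27ac summits were set apart. The median distance was 374 bp in AI-10-49 (164 to 6243 bp), where the list as a whole had 313 bp.

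The exception lay at the foremost RUNX1 site of CD34. There, a single DMSO region of 8526 bp (chr1:208090463-208098988) faced 3 AI-10-49 regions, and the RUNX1 summit at chr1:208097121 lay in the gap of 256 bp between chr1:208095515-208096909 and chr1:208097166-208098839, 45 bp from the latter. Over the whole list 11.3% of AI-10-49 RUNX1 summits lay inside a DMSO region but in no AI-10-49 region. H3K27ac had 3.75 fragments per M reads at the summit of the DMSO region (134 fragments, 3.15 to 4.45) and 1.84 at the highest of the AI-10-49 regions (68 fragments, 1.43 to 2.33), a ratio of 0.49 (0.36 to 0.66).

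**Figure D3:**
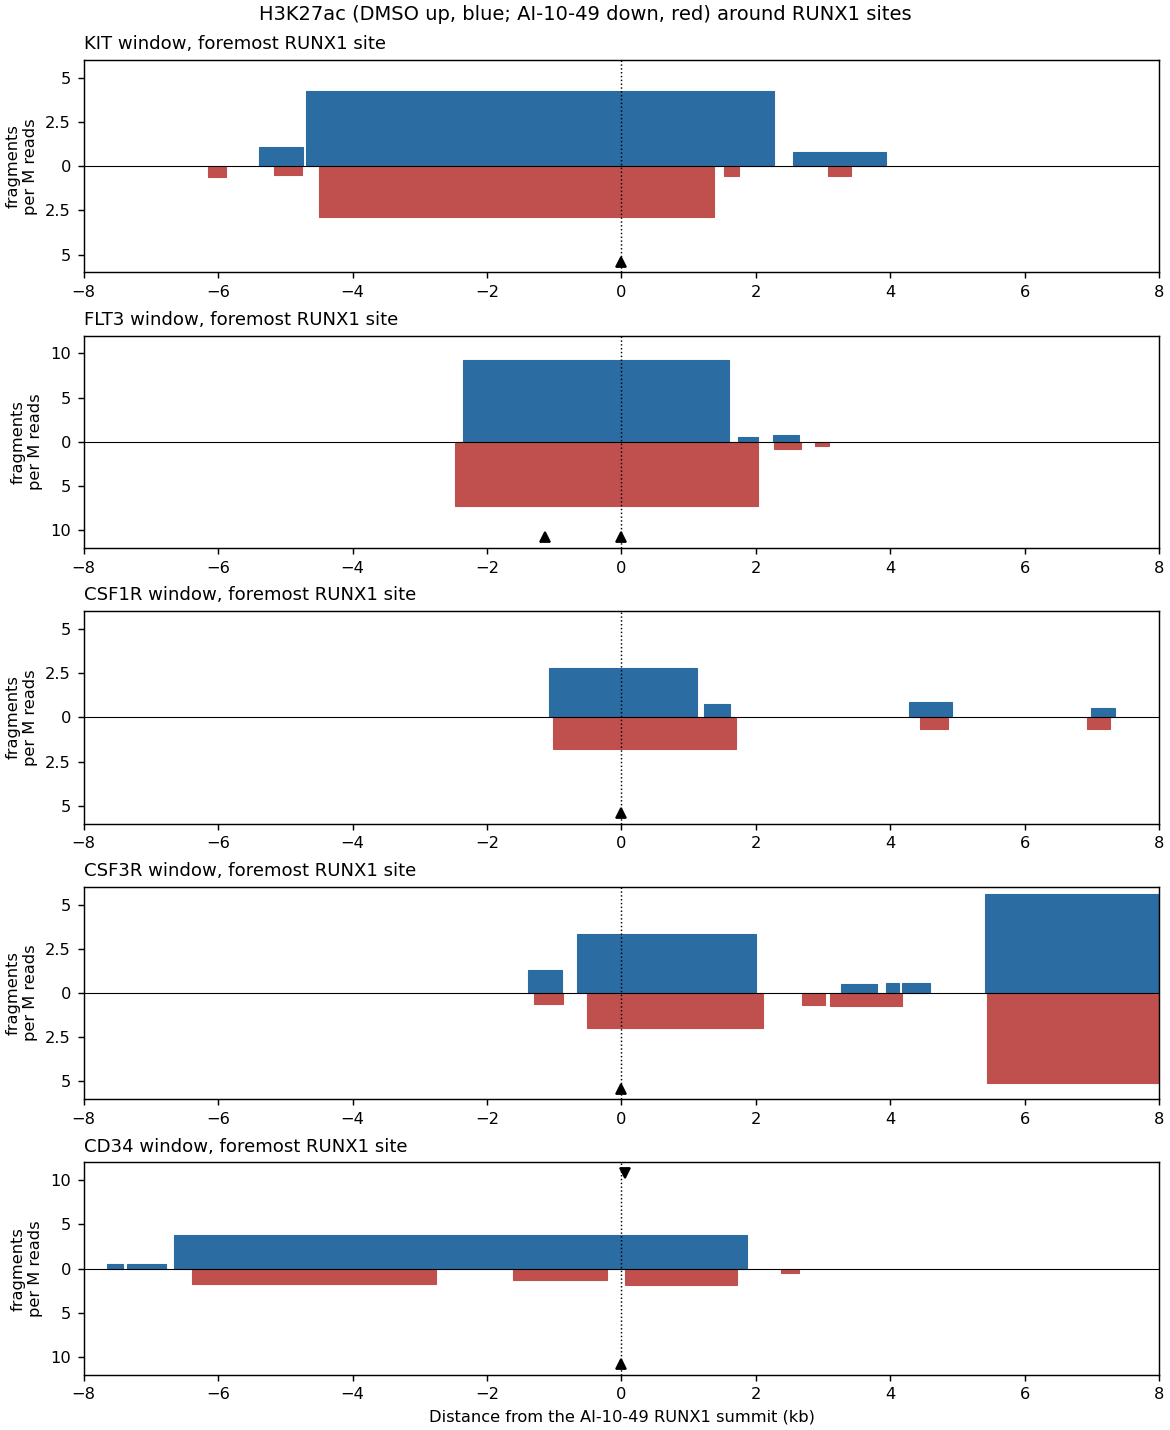
Surroundings of the foremost AI-10-49 RUNX1 site of each window that has one. The x axis is the distance from that RUNX1 summit in kb, bars are H3K27ac regions with summit fragments per M reads as height (DMSO up in blue, AI-10-49 down in red), and triangles mark RUNX1 summits (top DMSO, bottom AI-10-49). The y range differs between panels. In 4 windows an AI-10-49 region spans the dotted line, and in the CD34 window the line falls into the 256 bp gap between AI-10-49 regions.

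H3K27ac regions were more numerous but shorter in AI-10-49 in the windows as a whole. There were 111 regions in DMSO and 135 in AI-10-49 (ratio 1.22, whole lists 0.989), with a mean width of 1375 and 1054 bp (whole lists 1024 and 940 bp). They covered 153 kb and 142 kb, a ratio of 0.932 where the genome had 0.908. All 6 windows had more regions in AI-10-49, from 14 against 13 (CSF1R) to 15 against 9 (FLT3). The surplus lay below a −log10 q of 5, since from 5 upward there were 87 regions in each condition (whole lists 51171 and 46605). From 10 upward there were 56 and 48 (whole lists 34146 and 28425). Of the 87 DMSO regions found in both lists, 22 were overlapped by 2 or more AI-10-49 regions (25.3%, 16.6 to 35.7, genome 18.6%), and 11 of the 22 lay in the CD34 window. In the other direction 12 of 106 AI-10-49 regions were overlapped by 2 or more DMSO regions (11.3%, genome 9.9%). Covered length differed in direction between windows. It was lower in AI-10-49 for KIT (26.0 and 21.4 kb), CD34 (73.1 and 62.5 kb), CSF2RB (9.16 and 7.65 kb) and CSF3R (20.6 and 19.5 kb), and higher for FLT3 (14.1 and 17.5 kb) and CSF1R (9.77 and 13.7 kb).

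Of the DMSO regions, 24 (21.6%, 14.4 to 30.4) had no AI-10-49 region, where 29.0% of the whole list had none, and of the AI-10-49 regions, 29 (21.5%, 14.9 to 29.4) had no DMSO region, where 21.0% had none. Regions of 1 list only had a median of 0.518 fragments per M reads in DMSO (11 to 49 fragments) and 0.541 in AI-10-49 (14 to 43 fragments), where the whole lists had 0.813 and 0.757. Of these, 1 DMSO-only and 3 AI-10-49-only regions stood above the median of their list, and 2 DMSO-only and 1 AI-10-49-only regions reached a −log10 q of 10. Both shares depend on the definition of overlap, and with 50% of both intervals required they were 52.3% and 60.7%, with a margin of 1 kb 8.11% and 11.1%. Whole-list shares under these other definitions were not computed. The FLT3 and CSF1R windows had no DMSO-only region but 6 and 5 AI-10-49-only regions.

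At regions in both lists, H3K27ac summits were lower in AI-10-49 at 59 of 87 (30644 of 47607 over the genome). The median ratio was 0.873 (quartiles 0.682 and 1.08), beside 0.838 over all 47607 such regions. Ratios below 0.67 were found at 17 (19.5%, genome 29.5%) and above 1.5 at 8 (9.2%, genome 12.8%). Of those 8, 7 were small DMSO regions whose AI-10-49 partner was wider and had its summit outside them. With overlapping regions joined into 74 blocks, only 1 block lay above 1.5. The median of the blocks was 0.798 and 57 were below 1, with no genome value computed for blocks. Strong regions had lower ratios genome-wide. With at least 50 DMSO fragments the median was 0.682 in the windows (n = 32, 12 below 0.67) and 0.654 over all 21077 (53.2% below 0.67), and no strong region of the windows exceeded 1.5. With the choice made by at least 50 AI-10-49 fragments instead, the medians were 0.749 (n = 33) and 0.694 (n = 17316). For all regions in both lists and for both choices of strong ones, the median of the windows lay slightly above that of the genome. The ratio divided by fragment length was lower (0.798 for the 87 regions).

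**Figure D4:**
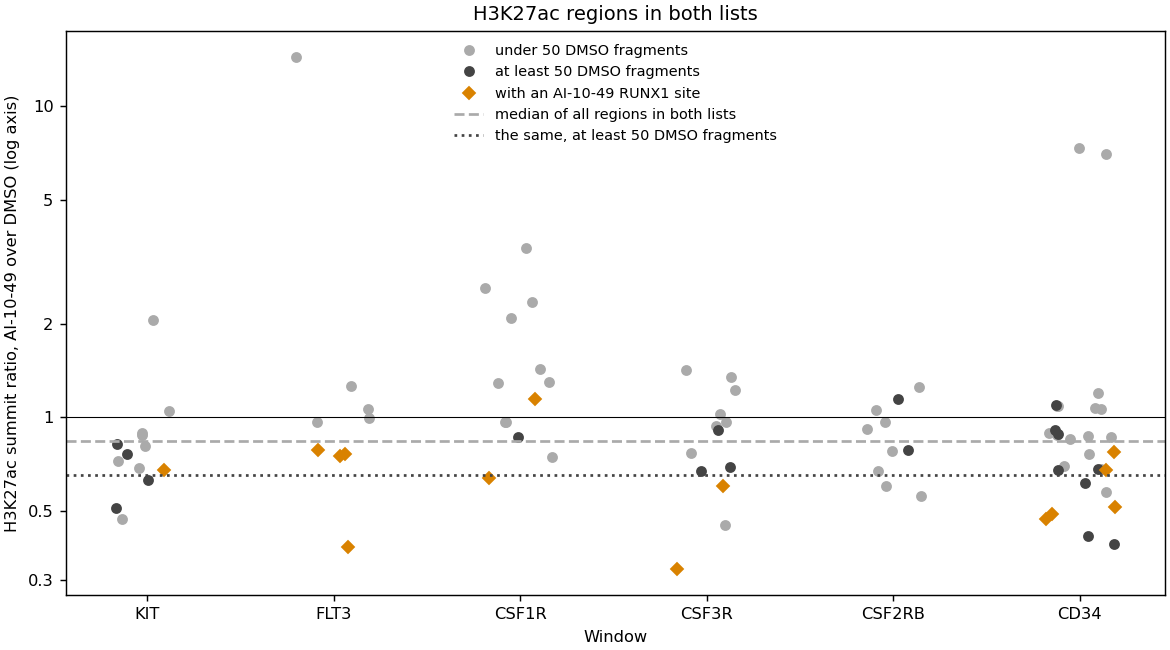
Ratio of H3K27ac summit fragments per M reads, AI-10-49 over DMSO (log axis), for the 87 DMSO regions in both lists, by window. Gray circles have under 50 DMSO fragments, dark circles at least 50, and orange diamonds hold an AI-10-49 RUNX1 site; the lines are medians over all regions of the genome in both lists, dashed (0.838) for all and dotted (0.654) for those with at least 50 DMSO fragments. Points are spread sideways for visibility. Of the 14 diamonds 13 lie below 1, and all 14 have at least 50 DMSO fragments. Over the genome 6830 of 7395 such regions lie below 1. Of the 18 dark circles, which hold no RUNX1 site, 16 do, beside 12669 of 13682 regions of that kind over the genome.

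The KIT window held 21 DMSO and 25 AI-10-49 regions, and the main regions had lower summits in AI-10-49. At chr4:55524038-55528570 H3K27ac had 3.92 fragments per M reads in DMSO (3.3 to 4.63) and 2.0 in AI-10-49 (1.57 to 2.51), a ratio of 0.51 (0.379 to 0.681). At the widest region of the window, chr4:55549921-55556874, which holds the RUNX1 site, the values were 4.23 (3.58 to 4.96) and 2.87 (2.35 to 3.47), a ratio of 0.677 (0.523 to 0.874). Strong regions genome-wide had a median of 0.654 with quartiles of 0.526 and 0.795, so the first ratio lay just below the lower quartile and the second near the median. The window's median ratio was 0.761 over 13 regions, and 11 of the 13 were below 1, where the genome had 0.838 and 30644 of 47607. Regions of 1 list only were 8 in DMSO, led by chr4:55543596-55544152 (19 fragments) and chr4:55574408-55574686 (23 fragments), and 6 in AI-10-49, led by chr4:55548457-55548725 (22 fragments) and chr4:55540260-55540553 (21 fragments).

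In the FLT3 window acetylation was concentrated in few regions. The region of the RUNX1 pair on the PAN3 side, chr13:28711109-28715064, had 9.27 fragments per M reads in DMSO (8.3 to 10.3) and 7.27 in AI-10-49 (6.43 to 8.2), a ratio of 0.784 (0.665 to 0.924). It ranked 125 of 67087 DMSO regions by summit height. By contrast chr13:28673626-28675295 had 4.23 in DMSO (3.58 to 4.96) and 1.62 in AI-10-49 (1.24 to 2.09), a ratio of 0.383 (0.279 to 0.52), and it holds the weak RUNX1 site at chr13:28674574-28674995. The regions around the other RUNX1 sites, chr13:28667269-28670517 and chr13:28605201-28606924, had ratios of 0.765 (0.572 to 1.02) and 0.749 (0.535 to 1.05), with intervals that include 1. AI-10-49-only regions were led by chr13:28617037-28617553 (20 fragments) and chr13:28670696-28671539 (19 fragments).

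The CSF1R window had low acetylation and the highest median ratio, 1.29 over 13 regions, to which 4 small regions with wider partners contributed. The region of the foremost RUNX1 site, chr5:149460452-149462665, was the strongest and widest in DMSO, with 2.8 fragments per M reads (2.28 to 3.41) and 1.78 in AI-10-49 (1.38 to 2.27), a ratio of 0.637 (0.459 to 0.878). At the other RUNX1 site, chr5:149444721-149446765 had 1.46 (1.09 to 1.91) and 1.68 (1.29 to 2.15), a ratio of 1.15 (0.783 to 1.7), the only region with a RUNX1 site in the windows that was above 1. At chr5:149431564-149433466 the values were 2.16 (1.7 to 2.7) and 1.87 (1.45 to 2.36), with a ratio of 0.865 (0.616 to 1.21), and the overlapping AI-10-49 region was the widest of that list in the window (3415 bp). The AI-10-49-only region with the highest −log10 q of all windows was chr5:149522815-149523225, with 1.16 fragments per M reads (43 fragments), 53943 bp from any DMSO region and on the side of the neighbour PDGFRB, the receptor of platelet-derived growth factor. The second, chr5:149401900-149402201 (26 fragments), was 20397 bp from one.

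For CSF3R the strongest region, chr1:36944945-36949779, had 6.22 fragments per M reads in DMSO (5.43 to 7.09) and 4.3 in AI-10-49 (3.66 to 5.02), a ratio of 0.691 (0.56 to 0.851), and 3 AI-10-49 regions overlapped it. The next, chr1:36928994-36932214, had 5.58 (4.83 to 6.41) and 5.08 (4.38 to 5.86), a ratio of 0.912 (0.743 to 1.12), and its interval includes 1. Both regions with a RUNX1 site had lower summits, 3.33 and 2.0 at chr1:36922922-36925587 (ratio 0.6, 0.443 to 0.809) and 2.33 and 0.757 at chr1:36957272-36958967 (ratio 0.326, 0.204 to 0.505). The latter was the lowest ratio in all windows. Of all DMSO-only regions in the windows chr1:36954502-36955314 had the highest −log10 q. It held 49 fragments and lay 385 bp from an AI-10-49 region, while chr1:36927756-36928173 (20 fragments) was 3 bp from one. AI-10-49-only regions were led by chr1:36942471-36942704 (22 fragments) and chr1:36926272-36926607 (25 fragments).

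CSF2RB, the window without RUNX1, had 12 DMSO and 15 AI-10-49 regions. Its strongest DMSO region, chr22:37309058-37311179, had 2.41 fragments per M reads in DMSO (1.93 to 2.98) and 2.76 in AI-10-49 (2.25 to 3.35), a ratio of 1.14 (0.851 to 1.54), and was broken into 3 AI-10-49 regions. At chr22:37296564-37297529 DMSO had 70 fragments (1.53 to 2.48 per M reads) and AI-10-49 had 1.54 per M reads (1.17 to 2.0), a ratio of 0.786 (0.544 to 1.13). Both intervals include 1. Regions of 1 list only held 19 and 21 fragments (chr22:37299395-37299606 and chr22:37279997-37280840, DMSO) or 24 and 29 (chr22:37316943-37317279 and chr22:37317703-37318088, AI-10-49), and they lay 70 to 451 bp from a region of the other list.

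The CD34 window was the most acetylated, with 38 DMSO and 45 AI-10-49 regions in 130 kb. Its widest region, chr1:208073815-208089111 (15297 bp), ranked 37 of 67087 DMSO regions by width. Its summit had 8.99 fragments per M reads in DMSO (8.04 to 10) and 6.08 in AI-10-49 (5.31 to 6.93), a ratio of 0.676 (0.568 to 0.805). The strongest by summit, chr1:208131253-208138114, had 9.02 (8.06 to 10.1) and 6.14 (5.36 to 6.99), a ratio of 0.68 (0.571 to 0.809), and 4 AI-10-49 regions overlapped it. Both ratios were close to the median of strong regions genome-wide (0.654).

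Among the regions of the CD34 window with a RUNX1 site, that at chr1:208057753-208066736 had 4.88 in DMSO (4.18 to 5.66) and 2.3 in AI-10-49 (1.84 to 2.84), a ratio of 0.471 (0.359 to 0.614). Next to it by ratio, after the split region at 0.49, came chr1:208045619-208048002 with 3.42 (2.84 to 4.08) and 1.76 (1.36 to 2.24), a ratio of 0.514 (0.374 to 0.7). The region chr1:208114327-208116962 stood nearer to 1, with 5.83 (5.06 to 6.68) and 4.52 (3.86 to 5.25), a ratio of 0.775 (0.628 to 0.954). A pair without RUNX1, chosen after their values were seen, had ratios of 0.415 (chr1:208040880-208043024) and 0.392 (chr1:208036457-208038410), below every RUNX1-bearing region of that window. DMSO-only regions numbered 9, led by chr1:208107791-208108900 (29 fragments) and chr1:208089766-208090347 (20 fragments), and AI-10-49-only regions numbered 2, chr1:208039448-208039709 (19 fragments) and chr1:208099499-208099758 (18 fragments).

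Over the windows, 14 of the 111 DMSO regions (12.6%, 7.07 to 20.3) held an AI-10-49 RUNX1 site, against 13.8% of all DMSO regions. All 14 were in both H3K27ac lists and all had at least 50 DMSO fragments. Over the genome 8785 of 9255 such regions were in both lists, and 7395 of these 8785 had at least 50 DMSO fragments. In the windows the median ratio of regions with at least 50 DMSO fragments was 0.657 with a RUNX1 site (n = 14) and 0.726 without (n = 18). Beyond this floor the sets were not matched for fragment number. Over the genome these medians were 0.679 (n = 7395) and 0.638 (n = 13682), in the opposite order. Whether regions with and without RUNX1 differ in the windows was not tested, since 1 library stood for each condition.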

How the data were processed

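Peak lists of 4 ME-1 libraries (RUNX1 and H3K27ac, DMSO and AI-10-49, grouped by sample title) were used, and the 2 input libraries were not used here directly. Per the submitters' processing notes the named tools were MACS2 2.1.0, Picard 1.96, SAMtools 1.3, Bowtie2 2.1.0 and CASAVA 1.4 on build hg19, with no role stated for any of them. Peaks were listed per sample by the authors, with the input of each call not given in the sources used here. The deposited ratio is the fold enrichment at the summit, and the −log10 p and q values used are the authors' as well. The deposited score was not used. The lowest −log10 q per list was 1.31 to 1.36, so q lay under 0.05.

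Summit fragments were recovered by solving fold enrichment and the Poisson −log10 p of each peak for whole fragment numbers at a scaling factor sought per list. All peaks were solved (100% in each list, within 0.003 of −log10 p). In simulated peaks (1533 to 2820 per list) 100% were exact, but these were made with the same formulas that were then solved. They do not test the read totals, which take the lowest background of each list as that of the genome. Read totals assume a genome size of 2700000000 bp and take the shortest peak as fragment length (RUNX1: 149 bp in DMSO, 169 bp in AI-10-49. H3K27ac: 192 bp and 210 bp).

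Peaks were in a window if they overlapped it by at least 1 bp, and 2 peaks were shared under the same minimum (the overlap counts equalled those of bedtools 2.31.1). A DMSO region with several AI-10-49 partners took the one with most fragments. Ratios carry exact conditional intervals of 2 Poisson counts. They were counted past 0.67 and 1.5. In each window the text names every DMSO RUNX1 site, up to 3 AI-10-49-only RUNX1 sites, the 2 H3K27ac regions with most DMSO fragments, the widest of each list, those with a named RUNX1 site and the 2 foremost regions of each list only. The remaining FLT3-window RUNX1 sites and their regions were added to show all 15. The members and lists were chosen with earlier results of these data known. Counts for other cytokine receptors and ligands were planned for an hg19 annotation and were not analysed here. Software was scipy 1.17.1, pandas 2.3.3, numpy 2.4.6 and matplotlib 3.10.9 under Python 3.11.15. Alternatives for overlap, threshold, list length, window extent, unit and partner were tried.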

Additional observations from a re-analysis of the deposited data

How the results depend on the processing

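Among 48 alternative values, 33 differed little (a share within its interval, a ratio within its quartiles or counting interval, a count within 1.5 times), 14 moved and 1 reversed. The cause was not tested except where stated. Joining H3K27ac regions into blocks, and setting a stronger part of a list against the whole other list, were chosen after seeing the data.

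The ratio of H3K27ac region numbers in the windows (1.22) was 1.0 at a −log10 q of at least 5. It reversed to 0.857 at 10, where both lists lose their weak regions. Over the whole lists the ratio was 0.989, with 0.911 at 5 and 0.832 at 10. The covered length ratio of the windows (0.932) stayed below 1 at 0.851 and 0.786. For RUNX1 the ratio of 7.5 was 1.5 with equally long lists (2 and 3 sites), which drop most AI-10-49 sites by construction, and the AI-10-49-only share (86.7%) became 33.3%. It was 100% at a −log10 q of at least 10, where no DMSO site of the windows is left, so no ratio of site numbers or DMSO share in H3K27ac could be given there. With windows lengthened by 50 kb there were 2 and 20 RUNX1 sites.

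Shares of H3K27ac regions in 1 list only (DMSO 21.6%, AI-10-49 21.5%) came to 52.3% and 60.7% with 50% of both intervals required, 38.7% and 49.6% with summits within 250 bp, and 8.11% and 11.1% with a margin of 1 kb. At a −log10 q of at least 5 in every list the shares were 28.7% (DMSO) and 14.9% (AI-10-49). At 10 in every list the DMSO share was 28.6% and the AI-10-49 share 4.17%. Stronger regions (−log10 q from 5 or from 10 upward) set against the whole other list gave 10.3% and 3.57% for DMSO and 11.5% and 2.08% for AI-10-49. Shares over the whole lists were not computed for these alternatives, so the windows cannot be set against the genome there. No paired analysis was possible because there was a single library for every antibody and condition. Regions of 1 list only held 11 to 49 fragments. By the listing level computed from their own background, 22 of 24 DMSO-only and 29 of 29 AI-10-49-only regions stood above what the other list needed. The share over all regions of 1 list only was not computed, and the part of depth was not tested.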
